A study of Drosophila melanogaster with 6 samples.

Results

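The genes described here are the 100 genes whose RNA level followed that of the late chorion genes most closely across 18 follicle cell libraries of Drosophila melanogaster. They were chosen by measured values: among the 7726 genes of the normalized matrix with a mean of at least 50, out of 17493 in all, the level of each gene on the log2(value + 1) scale was correlated over the 18 libraries with a reference, the mean log2(value + 1) of Cp15, Cp16, Cp18 and Cp19. The 100 highest Pearson correlation coefficients (r) were kept, without genes whose symbols start with Cp or Vm. Their r ran from 0.977 to 0.857 with a median of 0.895, beside a median of 0.04 over the 7726 genes. Since all 18 libraries served to choose them, their r and their levels by line are a description and carry no test of their own.

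The libraries came from ovaries of females in which the traffic jam driver (tj-Gal4), active in somatic cells of the ovary, directed the expression of a form of human AKT1, a kinase of the insulin pathway. The 4 mutant lines were T1, T15 and T5, each a tandem duplication in the pleckstrin homology domain found in juvenile granulosa cell tumors of the ovary, and the double substitution Q79K-W80R. WT expressed the unmutated human AKT1, and LP carried the driver with an empty landing pad and no AKT1. All 6 groups thus carried the driver, and each was 1 line with 3 libraries from the progeny of separate crosses, of 30 pairs of ovaries each. The age of the females is not given in the sources used here. Follicle cells were freed with trypsin and collagenase and passed through a mesh, without a sort, so that other ovarian cells could remain.

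Follicle cells form the epithelium around the developing oocyte and build its eggshell in layers. They first secrete the vitelline membrane and yolk proteins, and then, in the last stages, the chorion. The chorion genes lie in gene clusters whose DNA is amplified in these cells, so that a short burst of transcription yields enough protein; the late genes of the cluster on chromosome arm 3L, used as the reference, are the last to act. Their transcripts therefore mark the oldest follicle cells of an ovary. In bulk libraries such as these, fewer late follicle cells and less RNA per cell cannot be told apart.

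The normalized counts summed to between 23572559 and 34164960 per library, and the depth of the reads behind them is unknown. The libraries held the transcripts of somatic follicle cells throughout, with traffic jam (tj) at 8521 to 20471 normalized counts, and of germ cells, with vas at 1042 to 2596. The second WT library stood apart, with 22.1% of its total from mitochondrial genes beside a lowest share of 2.77%, and with the highest summed muscle markers (14410 over 12 genes, of which 11 reached 10 in at least 9 libraries) and midgut markers (8869 over 10 genes, of which 8 did so and epsilonTry was under 1 in at least 9). The ranges of the summed muscle markers were 3477 to 4973 in T1, 3197 to 3617 in T15, 5269 to 7159 in T5, 3562 to 3886 in Q79K-W80R, 3856 to 14410 in WT and 3692 to 4331 in LP, and their part in the results was not tested. Midgut markers summed to 162 to 5831 in T1, 1.14 to 113 in T15, 996 to 1194 in T5, 3.15 to 6.84 in Q79K-W80R, 3.85 to 8869 in WT and 1772 to 5094 in LP.

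The late chorion genes themselves set the libraries apart. Levels of single genes are given from here on as normalized counts of libraries 1, 2 and 3 of each line in turn, or as mean ± SD (n = 3 each). Cp16, an eggshell structural protein gene and the one nearest the reference (r = 0.992), had 399, 2420.2 and 6229 in T1, 4760.4, 5575 and 3387 in T15, 2103, 5025 and 2026 in T5 and 2047, 2016 and 1739.5 in Q79K-W80R, against 6659.7, 8162 and 6205 in WT. Cp16 stood at 5422, 4172 and 4144 in LP. Every Q79K-W80R library of Cp16 lay below every WT and LP library. Cp18 had 1164, 6659 and 23110.2 in T1, 14461, 16597 and 11086 in T15, 7227, 16265 and 5874 in T5 and 6428, 5663 and 4375 in Q79K-W80R, against 30752, 25505 and 17818 in WT. Cp18 stood at 22289.7, 15839 and 13812 in LP. All T15 and Q79K-W80R libraries of Cp18 were below all WT libraries. Cp15, the most abundant of the 4, had 10938, 53289.5 and 122833 in T1, 137118, 128038 and 110384 in T15, 41810.0, 99283 and 41523 in T5 and 69640.3, 63949 and 63258 in Q79K-W80R, against 93558, 161472 and 99031 in WT. Cp15 stood at 109172, 80114 and 107417 in LP. All 3 genes were lowest in the first T1 library, and were at a low level in the second T1, the first T5, the third T5 and all Q79K-W80R libraries. The third T1 and second T5 libraries lay with WT, T15 and LP.

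As the mean of the 4 genes, the reference was 10.47, 12.86 and 14.24 (log2) in T1, 14.03, 14.14 and 13.72 in T15, 12.65, 13.89 and 12.57 in T5, 12.89, 12.87 and 12.74 in Q79K-W80R, 14.41, 14.65 and 14.15 in WT, and 14.10, 13.70 and 13.83 in LP. This corresponded to an 18.2-fold range over all libraries and to a 13.7-fold range within T1 alone. Differences between line means made up 48.8% of its variance, and the rest lay between libraries of 1 line. With 3 libraries per line, the line means also carry spread between libraries, so this share overstates the differences between lines. The 12 mutant libraries averaged 13.09 ± 1.04, against 14.40 ± 0.25 in the 3 WT libraries (SD), a difference of -1.31 (exact two-sided permutation test, p = 0.0418, adjusted p = 0.14 over 7 comparisons). The difference between Q79K-W80R and WT was -1.57, that between T5 and WT -1.37 and that between T15 and WT -0.44; in each of them the libraries of the 2 lines did not overlap, and the exact permutation p was 0.1, the smallest that 3 against 3 libraries allow. T1 and WT differed by -1.88 and overlapped (exact permutation p = 0.2). WT exceeded LP by 0.53 without overlap (exact permutation p = 0.1), and the mutants were below LP by a difference of -0.79 (exact permutation p = 0.24). None of these 7 differences passed after adjustment. The tests of the 12 mutant libraries pooled 4 lines, so their spread also held differences between the mutant forms.

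**Figure D1:**
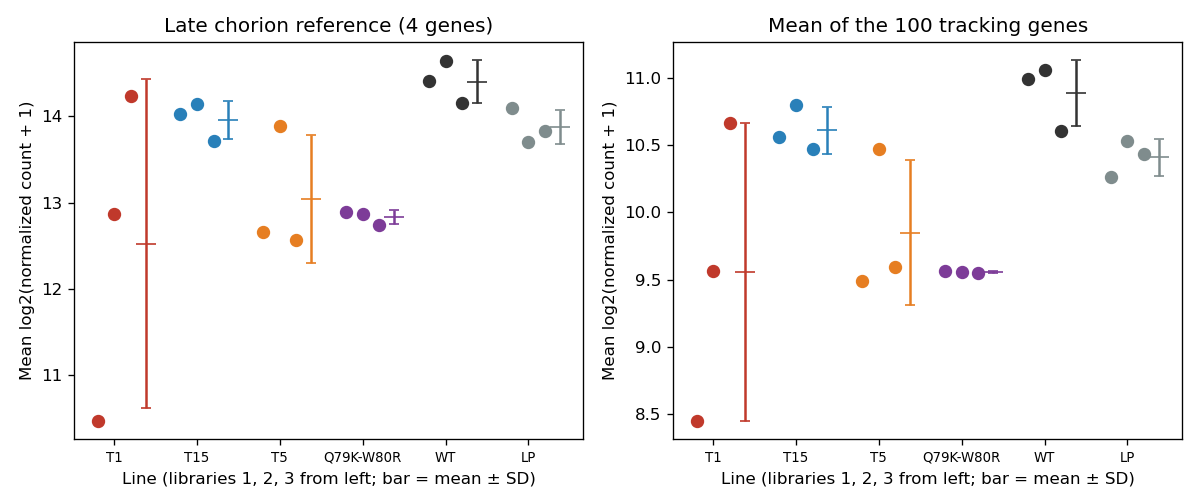
Left, the late chorion reference, and right, the mean of the 100 tracking genes, as mean log2(normalized count + 1) in each library (points) with mean ± SD of the 3 libraries of each line. The first T1 library is lowest in both panels, the 3 Q79K-W80R libraries lie within 12.74 and 12.89 on the left, and WT has the highest mean in both.

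The mean log2 level of the 100 tracking genes was 9.56 ± 1.10 in T1, 10.61 ± 0.17 in T15, 9.85 ± 0.54 in T5, 9.56 ± 0.01 in Q79K-W80R, 10.88 ± 0.24 in WT and 10.41 ± 0.14 in LP (SD, n = 3 each). All 100 genes had their lowest value in the first T1 library, where 14.7% of the 7726 genes were lowest. The highest value fell in the second WT library for 44 genes, in the first WT library for 35 and in the second T15 library for 12. The line with the highest mean was WT for 77 genes, T15 for 17 and LP for 6, and the line with the lowest was Q79K-W80R for 64, T1 for 34 and T5 for 2. Together the genes made up 0.839% of the first T1 library and up to 4.58% of the first WT library, and in the first T1 library the share without dec, the most abundant of them, was 0.453%.

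The first T1 library weighed on the choice. Without it, the r of these genes ran from 0.716 to 0.955 with a median of 0.878, and 63 of the 100 would have been chosen again. Leaving out the whole T1 line kept 52 of them, and Spearman rank correlation 54. With line means subtracted, so that differences between lines did not count, their r ran from 0.740 (CG2852, a cyclophilin-type peptidyl-prolyl isomerase) to 0.982 (CG6508, followed by CG31926 at 0.974), with a median of 0.875 beside 0.0119 over all 7726 genes. The reference had a gap between 12.89 and 13.70, and within the 11 libraries above it the r of the 100 genes ran from -0.0469 to 0.905 (median 0.537), and within the 7 below it from 0.462 to 0.994 (median 0.841). CG6508 kept 0.905 above the gap and 0.918 below it.

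The 12 genes with the highest r were CG16956, CG6508, mnd, dati, Cyp4s3, Eip78C, CG14834, CG43333, CG4009, Femcoat, yellow-g2 and CG14309. CG16956 had 35.1, 275 and 673 in T1, 924, 690.2 and 569 in T15, 224, 651 and 296 in T5 and 226, 274 and 264 in Q79K-W80R, against 1086, 1037 and 634 in WT. CG16956 stood at 545, 638 and 712 in LP. The third WT library of this gene lay within the range of LP. CG6508 had 64.9, 330.0 and 697 in T1, 645, 537 and 431 in T15, 172, 521 and 172 in T5 and 296, 359 and 317 in Q79K-W80R, against 782, 917 and 661 in WT. CG6508 stood at 591, 509 and 603 in LP. Both were high in every WT, T15 and LP library and in the third T1 and second T5 libraries, as the reference was. The last genes inside the threshold were CG17036, Cad88C and CG12206 (r = 0.858, 0.858 and 0.857), and the first outside were CG13786, Fkbp14 and KdelR (r = 0.856, 0.855 and 0.853), so that the choice of 100 fell within a continuum.

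The rule left out 26 genes by symbol, 11 of which had an r above that of the last tracking gene. Besides the reference these were Cp36, Cp38, Cp7Fa, Cp7Fb and Cp7Fc, which are other chorion genes, Vm26Ac, a vitelline membrane gene, and Cpr66D (r = 0.876), whose symbol denotes a cuticular protein. Cp36, a major chorion protein of the X-linked cluster, had 4059, 11993 and 39349 in T1, 50478, 46067 and 46987 in T15, 12647, 49422 and 15184 in T5 and 15239, 15178 and 13824 in Q79K-W80R, against 55265, 54603 and 35054 in WT. Cp36 stood at 34621, 36914 and 37455 in LP. The vitelline membrane genes Vm34Ca, Vml, Vm32E, Vm26Aa and Vm26Ab had an r between 0.789 and 0.833.

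**Figure D2:**
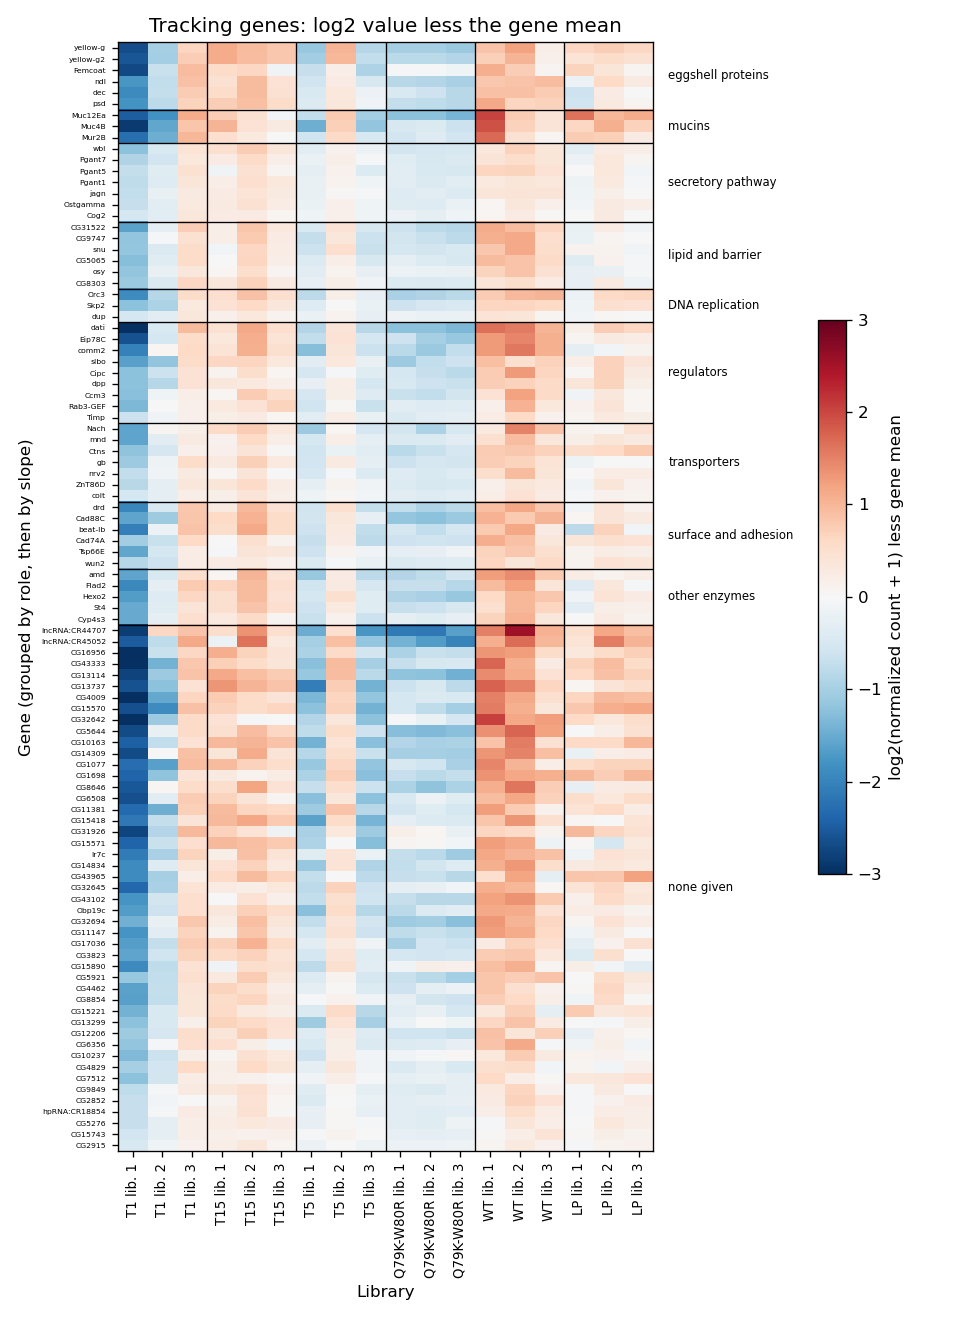
Each row is 1 of 99 tracking genes and each column 1 library; the color gives log2(normalized count + 1) less the mean of the gene, with the scale ending at 3 in either direction. Rows are grouped by role and ordered by slope within a group, and the first T1 library holds the lowest value in every row.

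The tracking genes included 6 known eggshell proteins or enzymes. Their means ran from 1292 (Femcoat) to 391511 (dec), beside a median of 1506 over the 100 genes. dec, which encodes the dec-1 eggshell proteins, was the most abundant of all, with 92783, 211591 and 587344 in T1, 505972, 674007 and 478961 in T15, 253886, 429561 and 304961 in T5 and 251174, 226844 and 193829 in Q79K-W80R, against 637991, 632488 and 588204 in WT. dec stood at 223517, 412072 and 342003 in LP. The LP libraries of dec lay below all libraries of WT and of T15. psd (palisade), a vitelline membrane protein required for the integrity of that layer, had 9108, 18206 and 49876 in T1, 52553, 58304 and 45624 in T15, 23672, 39895 and 29013 in T5 and 18989, 18346 and 17549.5 in Q79K-W80R, against 68603, 49157 and 50243 in WT. psd stood at 20762, 37632 and 33081 in LP. ndl (nudel), a protease that acts in eggshell crosslinking and in dorsoventral patterning of the embryo, averaged 17320.3 ± 912 in Q79K-W80R, 58649 ± 2234 in WT and 38686 ± 10179 in LP. In dec, psd and ndl the first LP library was low and the 3 Q79K-W80R libraries lay below all WT libraries.

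Femcoat, a chorion membrane protein, followed the reference within lines as well (r = 0.965), with 172, 716 and 2149.9 in T1, 1655, 1729.6 and 1059.6 in T15, 705, 1297 and 599 in T5 and 1079.8, 1099.8 and 1031 in Q79K-W80R, against 2417, 1888 and 1203 in WT. Femcoat stood at 1805, 1449 and 1205 in LP. The Q79K-W80R libraries lay below those of WT and LP, with a Log2FC of -0.72 to WT. yellow-g had 1022, 3226 and 10137 in T1, 13976, 12438 and 11234 in T15, 2925, 13155 and 3549 in T5 and 3254, 3226 and 2984 in Q79K-W80R, against 11641, 14901 and 7376 in WT. yellow-g stood at 9880.2, 10733 and 9961 in LP. The second T5 library reached the level of WT and T15, and the other 2 T5 libraries did not. Its neighbor yellow-g2 had 1115, 3242 and 10936 in T1, 14233, 12408 and 11467 in T15, 3191, 13129.7 and 3915 in T5 and 3759, 3747 and 3549.8 in Q79K-W80R, against 10874, 13276 and 7275 in WT. yellow-g2 stood at 8788, 9711 and 9051 in LP. Both genes belong to the yellow family, act in the eggshell and lie in a region known to be amplified in follicle cells. In mean they were higher in T15 than in WT (12549.6 ± 1374 for yellow-g in T15 and 11306 ± 3773 in WT, SD, n = 3 each), with overlap, and all 3 Q79K-W80R libraries lay below all WT libraries.

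The mucin genes had the highest median slope of the role groups. Muc4B had 417, 1039 and 5451 in T1, 6274, 4159 and 3728 in T15, 1119, 5016 and 1349 in T5 and 2223, 2282 and 1982 in Q79K-W80R, against 11591, 5011 and 4040.2 in WT. Muc4B stood at 4703, 6422 and 4958 in LP. In T1 and in T5, 1 library of 3 reached the level of T15. Muc12Ea had 538, 845 and 6466 in T1, 4964, 4119 and 2805 in T15, 1798, 5120.0 and 1473 in T5 and 1263, 1266 and 1135 in Q79K-W80R, against 12207, 5029 and 3897 in WT. Muc12Ea stood at 9272, 5935 and 6430.1 in LP. Mur2B, a mucin-related protein, averaged 3645 ± 293 in Q79K-W80R, 9756 ± 6060.1 in WT and 7795 ± 1481 in LP. In these 3 genes the first WT library was the highest of all 18, and the LP libraries overlapped the other 2 WT libraries or exceeded them.

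Genes of the secretory pathway moved with the reference by less. Pgant1, Pgant5 and Pgant7, which start O-glycosylation of proteins such as mucins in the Golgi, had slopes of 0.31, 0.36 and 0.37, where the slope is the change in log2 level per unit of log2 of the reference. Ostgamma, a subunit of the complex that N-glycosylates proteins in the endoplasmic reticulum, had 2488, 3150.1 and 4884 in T1, 4791, 5485 and 4671 in T15, 3506, 4419 and 3672 in T5 and 3134, 3043 and 3462 in Q79K-W80R, against 4196, 5041 and 4449 in WT. Ostgamma stood at 3757, 4798 and 4579 in LP. Its Q79K-W80R libraries lay below all of WT, and its LP libraries overlapped WT. wbl (windbeutel), a chaperone of the endoplasmic reticulum needed for dorsoventral patterning, had 1218, 2084 and 3823 in T1, 4022, 4898 and 3678 in T15, 2301, 3158 and 2557 in T5 and 1969, 2026 and 2072 in Q79K-W80R, against 3573, 4641 and 3710.0 in WT. wbl stood at 2324, 3419 and 3322 in LP. Both were highest in the second T15 library. jagn, a protein of the endoplasmic reticulum needed in oogenesis, and Cog2, a subunit of a Golgi tethering complex, had slopes of 0.30 and 0.20. The median slope of the 8 genes in this group was 0.33, beside 0.79 for the 6 eggshell genes and 1.09 for the 3 mucins.

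A further group acts in lipids and barriers. snu and osy encode ABC transporters that seal the cuticle and tracheae. snu averaged 573 ± 20.2 in Q79K-W80R, 1461 ± 307 in WT and 841 ± 64.8 in LP. osy averaged 902 ± 10.9 in Q79K-W80R, 1641 ± 233 in WT and 922 ± 78.5 in LP. For osy, LP was close to Q79K-W80R. CG31522, a fatty acid elongase, had 933, 2334 and 4777 in T1, 3234, 5082 and 3558 in T15, 2061, 3864 and 2025 in T5 and 1805, 1623 and 1568 in Q79K-W80R, against 6166, 5411 and 4418 in WT. CG31522 stood at 2423, 3386 and 2658 in LP. CG9747, a fatty acid desaturase, averaged 4059 ± 303 in Q79K-W80R, 12315 ± 2695 in WT and 6291 ± 621 in LP. CG5065 and CG8303 encode fatty acyl-CoA reductases. CG5065 averaged 1452 ± 109.6 in Q79K-W80R, 3287 ± 423 in WT and 1790.3 ± 298 in LP. CG8303 averaged 13825 ± 107 in Q79K-W80R, 24119.8 ± 2400.5 in WT and 18111 ± 3515 in LP. In all 6 genes the mean was highest in WT or T15 and lowest in Q79K-W80R or T1, and their median difference between WT and LP was 0.85 (log2), the largest of the role groups.

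Of the machinery that copies DNA, Orc3, dup and Skp2 were among the tracking genes. Orc3, a subunit of the origin recognition complex, had 653, 1342 and 3533 in T1, 3421, 4428 and 3447 in T15, 1409.6, 2741 and 2028 in T5 and 1227, 1288 and 1381 in Q79K-W80R, against 4090.2, 4717 and 4913 in WT. Orc3 stood at 2139.8, 3651 and 3725 in LP. All WT libraries of Orc3 lay above all LP libraries, of which the first was apart from the other 2. dup (double parked, the fly Cdt1), which licenses origins and is required for chorion gene amplification, had 1635, 1851 and 2959 in T1, 2614, 2913 and 2542 in T15, 2059, 2531 and 1975 in T5 and 2118, 2039 and 2063 in Q79K-W80R, against 3135, 3047 and 2479 in WT. dup stood at 2239, 2428 and 2389 in LP. Skp2, an F-box protein that takes part in the turnover of cell cycle proteins, averaged 2212 ± 128 in Q79K-W80R, 4923 ± 107 in WT and 3886 ± 856 in LP. The range of Orc3 was 2.91 on the log2 scale and that of dup 0.94. By SD, dup, CG2915, Cog2, CG15743 and colt were the 5 flattest of the 100 genes, and lncRNA:CR44707, lncRNA:CR45052, Muc12Ea, dati and CG13737 the 5 most variable.

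Regulators, with 9 genes, were less abundant. Eip78C, an ecdysone-induced nuclear receptor, had 24.3, 106 and 225 in T1, 193, 328 and 204 in T15, 91.9, 209.9 and 107 in T5 and 99.4, 77.2 and 70.1 in Q79K-W80R, against 373, 426 and 325 in WT. Eip78C stood at 162, 185 and 179 in LP. WT lay above LP without overlap. dati (datilografo), a zinc finger transcription factor, had 72.6, 512 and 1346 in T1, 961, 1542 and 983 in T15, 379.7, 908 and 389.9 in T5 and 297, 298 and 275 in Q79K-W80R, against 2206, 2061 and 1414 in WT. dati stood at 788, 1166 and 1066 in LP. Both were at a low level in all Q79K-W80R libraries (Log2FC of -2.18 and -2.68 to WT), and at an intermediate level in LP. slbo, a C/EBP transcription factor of border and late follicle cells, had 102, 140.0 and 464 in T1, 489.9, 499 and 399 in T15, 250.4, 398 and 271 in T5 and 149, 191 and 206 in Q79K-W80R, against 599, 446 and 511 in WT. slbo stood at 368, 511 and 418 in LP. The libraries of T15, WT and LP overlapped. dpp, a BMP ligand that patterns anterior and dorsal follicle cells, had 158, 206 and 511 in T1, 477, 457 and 415 in T15, 318, 429.8 and 262 in T5 and 268, 246 and 235 in Q79K-W80R, against 624, 604 and 563 in WT. dpp stood at 486, 595 and 425 in LP.

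comm2, a relative of the sorting receptor commissureless, had 58.6, 251 and 365 in T1, 319, 502 and 335 in T15, 98.2, 312 and 154 in T5 and 137, 110.3 and 144 in Q79K-W80R, against 589, 722 and 507 in WT. comm2 stood at 199.8, 228 and 258 in LP, with all WT libraries above all others. Timp, the inhibitor of matrix metalloproteases, had a shallow slope (0.28) and averaged 1217 ± 61.9 in Q79K-W80R, 1944 ± 343 in WT and 1751 ± 125 in LP. Cipc, named for a partner of the circadian protein Clock, averaged 794 ± 73.7 in Q79K-W80R, 2385 ± 576 in WT and 1617 ± 374 in LP, and Ccm3, a component of kinase complexes of the germinal center kinase family, averaged 2324 ± 152 in Q79K-W80R, 6275 ± 1859.7 in WT and 3950.0 ± 657 in LP. Rab3-GEF, an exchange factor of Rab3, had the lowest mean of this group, 174 normalized counts over the 18 libraries.

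Transporters included mnd (minidiscs) and gb (genderblind), which belong to amino acid transporter families, nrv2, a subunit of the sodium pump, ZnT86D, a zinc transporter, Ctns, the cystine carrier of the lysosome, colt, a mitochondrial carnitine carrier, and Nach, a sodium channel subunit. mnd, with the third highest r, had 522, 1249 and 1889 in T1, 1718, 2372 and 1806 in T15, 1095, 1810.5 and 1291 in T5 and 1162, 1166 and 1249 in Q79K-W80R, against 2191, 3011 and 1989 in WT. mnd stood at 1772, 2033 and 1895 in LP. Ctns averaged 482 ± 52.7 in Q79K-W80R, 1280.2 ± 53.2 in WT and 1183 ± 108 in LP, with a difference of 0.12 (log2) between WT and LP. nrv2 averaged 836 ± 25.2 in Q79K-W80R, 1728 ± 379 in WT and 1241 ± 101 in LP, and Nach, with the second lowest mean of the 100 genes, averaged 38.5 ± 6.58 in Q79K-W80R, 119.8 ± 49.7 in WT and 71.5 ± 10.9 in LP.

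At the cell surface, the tetraspanin Tsp66E averaged 1280.4 ± 80.2 in Q79K-W80R, 2333 ± 249 in WT and 1663 ± 69.6 in LP. Cad74A and Cad88C are cadherins. Cad74A averaged 1394 ± 17.2 in Q79K-W80R, 3712 ± 946 in WT and 2849 ± 106 in LP. Cad88C averaged 576 ± 22.8 in Q79K-W80R, 2523 ± 231 in WT and 1541 ± 178 in LP. drd (drop dead), a putative membrane acyltransferase, had 509, 1418 and 3476 in T1, 2387, 3901 and 2697 in T15, 1304, 2779 and 1217 in T5 and 1184, 1050.5 and 1135 in Q79K-W80R, against 3704, 4427 and 3465 in WT. drd stood at 1851, 2621 and 2184 in LP. wun2, a lipid phosphate phosphatase, averaged 724 ± 20.0 in Q79K-W80R, 1369 ± 134 in WT and 1170.3 ± 138 in LP, and beat-Ib, an immunoglobulin superfamily protein, had the lowest mean of the 100 genes (60.1). Of these 6 surface genes Cad88C differed most between Q79K-W80R and WT (Log2FC of -2.12).

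Other enzymes were Cyp4s3, a cytochrome P450, amd, a relative of DOPA decarboxylase that acts in the cuticle, St4, a sulfotransferase, Hexo2, a hexosaminidase, and Flad2. Cyp4s3 had 516, 1213 and 2106 in T1, 1811, 2204 and 1564 in T15, 926, 1628 and 951 in T5 and 1232, 1158 and 1249 in Q79K-W80R, against 2355, 3032 and 1889 in WT. Cyp4s3 stood at 1506, 1764 and 1596 in LP. amd averaged 348 ± 37 in Q79K-W80R, 1305 ± 282 in WT and 654 ± 29.2 in LP, and Hexo2 averaged 853 ± 71.6 in Q79K-W80R, 2998 ± 403 in WT and 1971 ± 349 in LP. All 5 were lowest in the first T1 library, as were all 100 genes, which were chosen on these libraries. They were also higher in each WT library than in each Q79K-W80R library. The share of all genes so separated was not counted.

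No role was assigned to the other 47 genes. Among all 100, 46 bear a CG number, and 3 are noncoding RNAs. CG14309 was the most abundant of those without a role, with 3663, 23374 and 43337 in T1, 30426, 51029 and 31010.4 in T15, 13076, 34013 and 14793 in T5 and 11814, 11748 and 11421 in Q79K-W80R, against 59427, 66247 and 43966 in WT. CG14309 stood at 20672, 27225 and 27741 in LP. Its WT libraries lay above all LP libraries. CG13114 had 1207, 3846 and 14880.0 in T1, 18082, 15317 and 13869.9 in T15, 3764, 15727 and 4661 in T5 and 3587, 3522 and 3032 in Q79K-W80R, against 22059.8, 17786 and 11075 in WT. CG13114 stood at 12389, 15019 and 13209 in LP; it and CG16956 lie in regions known to be amplified in follicle cells. The noncoding lncRNA:CR44707 had the largest spread of the 100 genes, with 22.5, 260.1 and 303 in T1, 244, 431 and 239 in T15, 58.8, 238 and 49.7 in T5 and 37.7, 37 and 53.5 in Q79K-W80R, against 479, 978 and 344 in WT. lncRNA:CR44707 stood at 234, 376 and 316 in LP. lncRNA:CR45052 averaged 18.1 ± 3.83 in Q79K-W80R, 147 ± 40.0 in WT and 127 ± 48.8 in LP, and the hairpin RNA gene hpRNA:CR18854 averaged 4566 ± 74.2 in Q79K-W80R, 7279.7 ± 946 in WT and 6328 ± 676 in LP. CG2915 had the smallest spread, a range of 0.82 on the log2 scale.

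The genes differed in how strongly they followed. The slope on the reference ran from 0.18 (CG2915) to 1.35 (lncRNA:CR44707), with a median of 0.64 beside 0.01 over all 7726 genes. It was at least 0.8 in 30 genes, 0.4 to 0.8 in 49 and under 0.4 in 21. dec, ndl and psd lay between 0.68 and 0.74, yellow-g at 1.05 and Muc12Ea at 1.12.

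**Figure D3:**
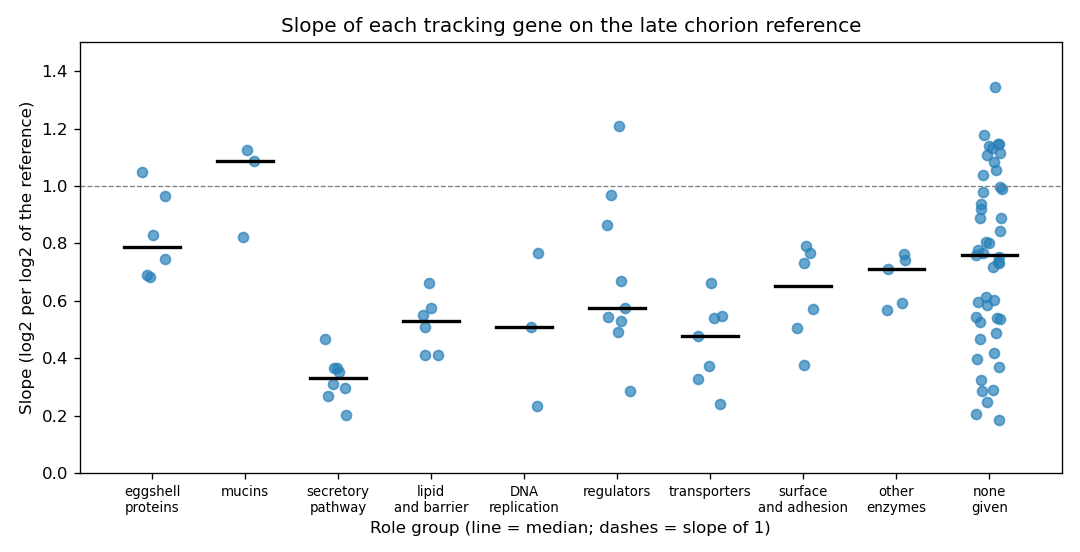
Slope of each tracking gene on the late chorion reference (log2 per log2, y axis) by role group (x axis); points are genes, lines are group medians and the dashes mark a slope of 1. The 8 genes of the secretory pathway have a median slope of 0.33 and the 3 mucins one of 1.09.

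Part of the 100 genes lay nearer to the earlier eggshell genes. For 36 of them the r with the mean level of the vitelline membrane genes (6 genes, without psd) exceeded that with the reference, with medians of 0.926 and 0.883. This split used the same 18 libraries, and the vitelline membrane genes were themselves higher in T15 than in LP (17.54 ± 0.19 and 16.48 ± 0.38, mean log2), so the levels of either set in T15 and LP are not compared. dec, with an r of 0.985 to the vitelline membrane genes, was among the 36. The mucin Muc12Ea was among the other 64. A lower mean log2 level in WT than in LP was found in 7 of the 100 genes, beside 49.6% of the 7726 genes. The 7 were CG31926, CG15570, CG15221, CG7512, Muc12Ea, CG43965 and CG5276. The reference that the 100 genes were chosen to follow was itself 0.53 (log2) higher in WT than in LP.

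**Figure D4:**
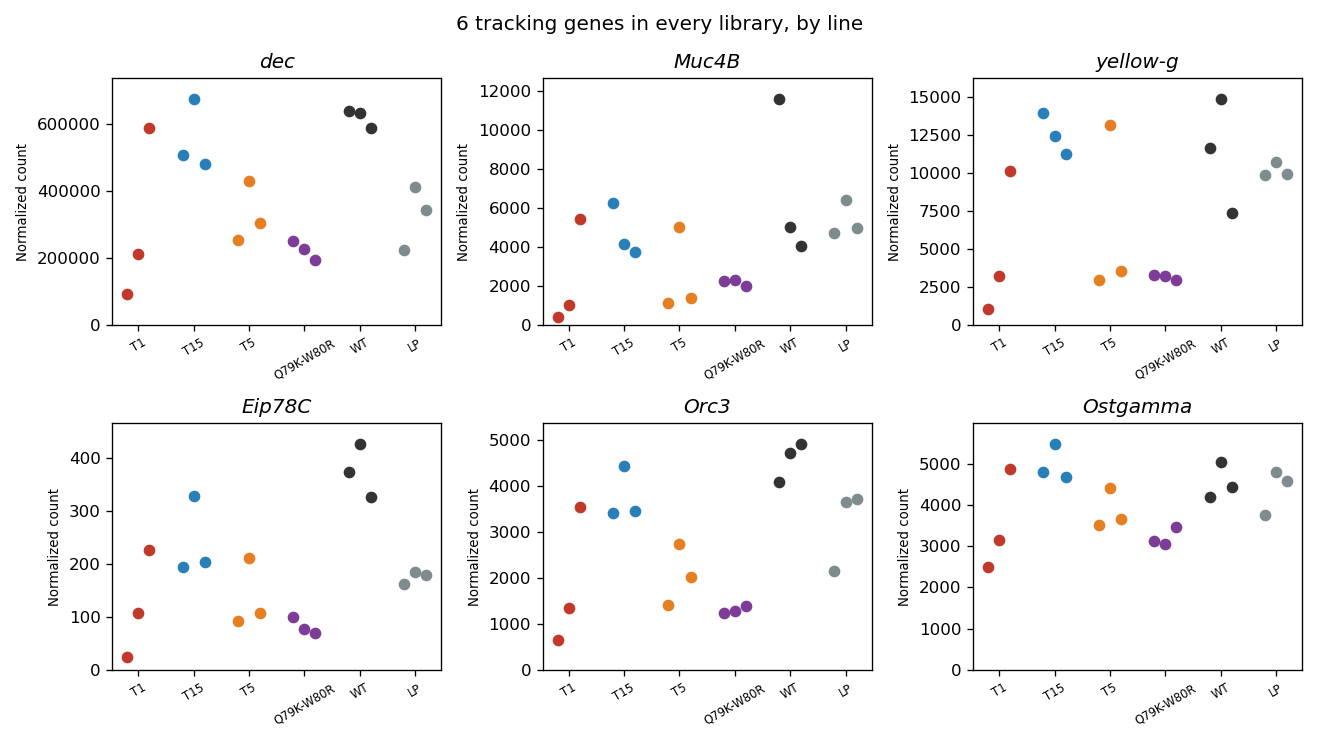
Normalized counts of dec, Muc4B, yellow-g, Eip78C, Orc3 and Ostgamma in every library, by line, with each y axis starting at 0. The third T1 and second T5 libraries lie above the other 2 of their lines in each of the 6 genes, and all Q79K-W80R libraries lie below all WT libraries.

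Between lines, the genes were compared with limma across all genes that reached a value of 10 in at least 3 of the compared libraries, and a gene was called at a Benjamini-Hochberg adjusted p under 0.05 with a fold of at least 1.5 in either direction. All 100 tracking genes entered each fit. Because the rule used the same libraries, the following counts are given beside the share of all genes called and nothing is read from them, and the comparisons with WT share its 3 libraries. In Q79K-W80R against WT, 85 of the 100 were called lower and 0 higher, beside 6.33% of 9047 genes lower and 8.80% higher, and their median Log2FC was -1.27. The count was 78 without the second WT library, where 1474 of 8925 genes were called in either direction. Over all libraries left out in turn it ran from 72 (of 900 genes called) to 94 (of 1613). In the 12 mutant libraries against WT, 4 were lower (nrv2, Ctns, Cipc and CG43102) and 0 higher, beside 1.02% of 9605 genes lower and 1.29% higher, with a median Log2FC of -0.97. Leaving out any 1 of the WT libraries gave 0 calls; leaving out the second T15 library gave 16, the first T1 library 10 and the third T1 library 9, while each of the Q79K-W80R libraries, the first T5 library or the third T5 library gave 1.

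In T5 against WT, 3 genes were lower (CG5921, Skp2 and Ctns), beside 0.275% of 9102 genes lower and 0.439% higher, and 64 were called without the second T5 library, where 472 of 8923 genes were, whereas leaving out any other T5 or WT library gave 0. T1 against WT gave 0 calls, with 0% of 9175 genes lower and 0% higher; 63 tracking genes and 963 genes in all had an unadjusted p under 0.05, and without the third T1 library 62 tracking genes and 685 of 9074 genes were called, with 0 for each other library left out. T15 against WT gave CG1698 as the 1 gene lower, beside 0.0787% of 8890 genes lower and 0.236% higher. The library number was also used as a block, since same-numbered libraries of T15 and WT deviated together. No label gives that number as a batch, and the pairing was read from these same values. With the block, 7 tracking genes were lower and 0 higher in T15, beside 112 of 8890 genes lower and 54 higher. The same block called 29 tracking genes in T5 (of 185 genes), 87 in Q79K-W80R (of 1358), 4 in the mutants (of 189) and 0 in T1 against WT. For WT against LP it called 0 (of 4 genes). Without the block, T15 against WT gave 2 tracking genes called without the second WT library (of 280 genes called in either direction) or without the third WT library (of 36), and 0 without each of the others. For WT against LP, Eip78C (Log2FC 1.09) and comm2 (1.39) were higher and none lower, beside 0.353% of 9073 genes higher and 0.0661% lower, and 16 were called without the third WT library, where 143 of 8944 genes were, and 0 without each other WT or LP library. With all 18 libraries in 1 fit the tracking genes called numbered 60 for Q79K-W80R (of 1227 genes), 44 for the mutants (of 714), 36 for T1 (of 530), 10 for T5 (of 464) and 0 for T15 (of 106) against WT, and 0 for WT against LP (of 135). The median Log2FC of the 100 genes was -1.28 for T1, -1.02 for T5 and -0.25 for T15 against WT, and 0.42 for WT against LP.

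The reference genes and other lists of known function were tested in the same fits. In Q79K-W80R against WT, limma called all 4 reference genes lower. It called 3 of the 4 with no filter, after quantile normalization or without the trend, and 1 with all 18 libraries in the fit. Leaving out the second WT library or any 1 of the Q79K-W80R libraries also gave 3 of the 4. Cp18 had a Log2FC of -2.15 (SE 0.22, limma adjusted p = 0.000722) and Cp16 one of -1.85 (SE 0.12, adjusted p = 0.000143). Cp19 had a Log2FC of -1.48 (SE 0.13, limma adjusted p = 0.000408) and Cp15, the most abundant, one of -0.80 (SE 0.21, adjusted p = 0.0348). In the other 5 comparisons limma called 0 of the 4, and with all 18 libraries in the fit 1 for the mutants and 1 for T1 against WT. Under the block by library number, limma called Cp16 and Cp18 lower in T15 against WT (adjusted p = 0.0392 and 0.0371). That block called 3 of the 4 in T5 and 4 in Q79K-W80R against WT. It called 0 in the mutants and in T1 against WT, and 0 in WT against LP. Without the third T1 library 1 of the 4 was called in T1 against WT, without the third WT library 1 was higher in WT against LP, and without the second T5 library all 4 were called in T5 against WT. Between pairs of mutant forms, 54 tests of the 4 reference genes and 5 other chorion genes gave 0 with an adjusted p under 0.05 and 12 with an unadjusted p under 0.05, the smallest adjusted p being 0.0544.

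Other chorion genes fell in Q79K-W80R against WT in 5 of 5 and vitelline membrane genes in 7 of 7, with median Log2FC of -1.74 and -1.56. Of 15 other eggshell assembly genes 9 fell, among them the tracking genes dec, psd, ndl, yellow-g and yellow-g2 and, outside them, Mur11Da, a mucin-related gene (Log2FC -1.98), Fcp3C, a follicle cell protein gene (-1.64), tsl, which patterns the ends of the embryo (-1.11), and pip, a sulfotransferase of dorsoventral patterning (-0.93). The ecdysone response list had 7 of 15 lower, among them the nuclear receptor genes Hr3 (-1.43) and ftz-f1 (-1.16) and the ETS factor gene Eip74EF (-1.36), and the nuclear receptor gene Eip75B higher (0.81). Of 12 late follicle and ovulation genes 6 fell, with ttk, a transcription factor of the late follicle cell, at -1.19 and Oamb, an octopamine receptor of ovulation, at -0.68, and Zip89B, a zinc transporter (1.95), and Nox, an NADPH oxidase (1.02), rose. The chorion gene amplification list had 1 of 22 lower (CycE, the cyclin of S phase entry, -0.60) and 0 higher, with a median Log2FC of -0.04, and the tracking gene dup at -0.47 did not pass the fold threshold. Of 12 genes of mitotic and early follicle cells 0 fell and Fas3 rose (0.77). Germline genes gave 2 higher and 1 lower of 14, muscle genes 4 lower of 11, and hemocyte and fat body genes 0 of 4. The border and polar cell list had the tracking gene slbo as the 1 gene lower of 8, and Yp1 and Yp3 were lower of the 3 yolk protein genes. Lists can share genes, such as psd in the vitelline membrane and the other eggshell assembly list, so their counts are not separate. Tracking genes in these lists were chosen on the same libraries. Without them, 6 of 6 vitelline membrane and 4 of 9 other eggshell assembly genes were lower. The counts were 6 of 14 for ecdysone response, 5 of 11 for late follicle and ovulation, 1 of 21 for chorion gene amplification and 0 of 7 for border and polar genes. Over the 7726 genes with a mean of at least 50 the median was 0.00. For the mutants against WT the list genes called were Mur11Da (-2.004), Fcp3C (-1.55), ftz-f1 (-1.06) and c(3)G, a meiotic protein gene (-0.72), all lower. For T5 against WT they were ftz-f1 (-1.02) and Hr3 (-0.65), both lower. WT against LP gave Fcp3C (1.40) and the tracking gene Eip78C higher and exu, which localizes maternal RNA, lower (-1.18), and T1 and T15 against WT gave 0. With the library number as a block, T15 against WT gave 3 germline, 2 other eggshell assembly, 2 late follicle, 1 ecdysone response, 1 muscle and 1 hemocyte and fat body gene lower, beside the 2 reference genes, and 2 ecdysone response genes higher.

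Across the 18 libraries, with the tracking genes left out of each list, the level of 6 of 13 lists was related to the reference at an adjusted p under 0.05 (two-sided permutation tests with 100000 resamples, adjusted over the 13 lists). Other chorion genes had a Pearson r of 0.95 (permutation p = 1e-05, the smallest these resamples can give; adjusted p = 0.00013) and a Spearman rho of 0.816 (permutation p adjusted to 0.00065). Vitelline membrane genes had r = 0.849 and rho = 0.759, ecdysone response genes r = 0.752 and rho = 0.763, and yolk protein genes r = 0.746 and rho = 0.589, with adjusted permutation p of 0.000195, 0.000997 and 0.00107 for r. Single ecdysone response genes went both ways, from r = -0.884 (Eip75B) to 0.955 (the tracking gene Eip78C), with a median of 0.495. A list level therefore does not describe each gene of the list. The other eggshell assembly genes (r = 0.657, rho = 0.43) and the muscle genes (r = 0.579, rho = 0.276) passed for r, with adjusted permutation p of 0.00871 and 0.044, and not for rho, with adjusted permutation p of 0.163 and 0.494. Leaving out tracking genes took the genes of highest r from some lists, such as 6 of the 16 other eggshell assembly genes. Genes with Cp or Vm symbols could not be tracking genes, so r cannot be ranked between lists. Without the 2 libraries farthest from the median reference, the first T1 and the third T5, r was 0.939 for other chorion, 0.807 for vitelline membrane, 0.827 for ecdysone response and 0.726 for yolk, while the other eggshell assembly and muscle lists came to 0.459 and 0.416 (adjusted permutation p = 0.157 and 0.196), so that these 2 relations no longer held without both. Leaving out the first T1 library alone gave r = 0.437 and 0.336. The second WT library held the highest sum of muscle markers (14410), and its part in the relation of the muscle genes was not tested.

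The chorion gene amplification list had r = 0.208, mitotic and early follicle genes r = -0.412, border and polar genes -0.213, germline genes -0.0926, late follicle and ovulation genes -0.0909, midgut genes 0.108 and hemocyte and fat body genes -0.182, none with an adjusted permutation p under 0.05. Within the 11 libraries above the gap of the reference, r was 0.556 for other chorion, 0.439 for vitelline membrane, 0.0347 for yolk and 0.335 for ecdysone response, and within the 7 below it 0.953, 0.834, 0.44 and 0.223. With line means subtracted it was 0.931, 0.902, 0.486 and 0.727, and an exact permutation within lines gave an adjusted p of 0.1 for other chorion and 0.216 for vitelline membrane. The libraries of a line are not independent draws over the 6 lines, so the pooled p-values also carry differences between lines.

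**Figure D5:**
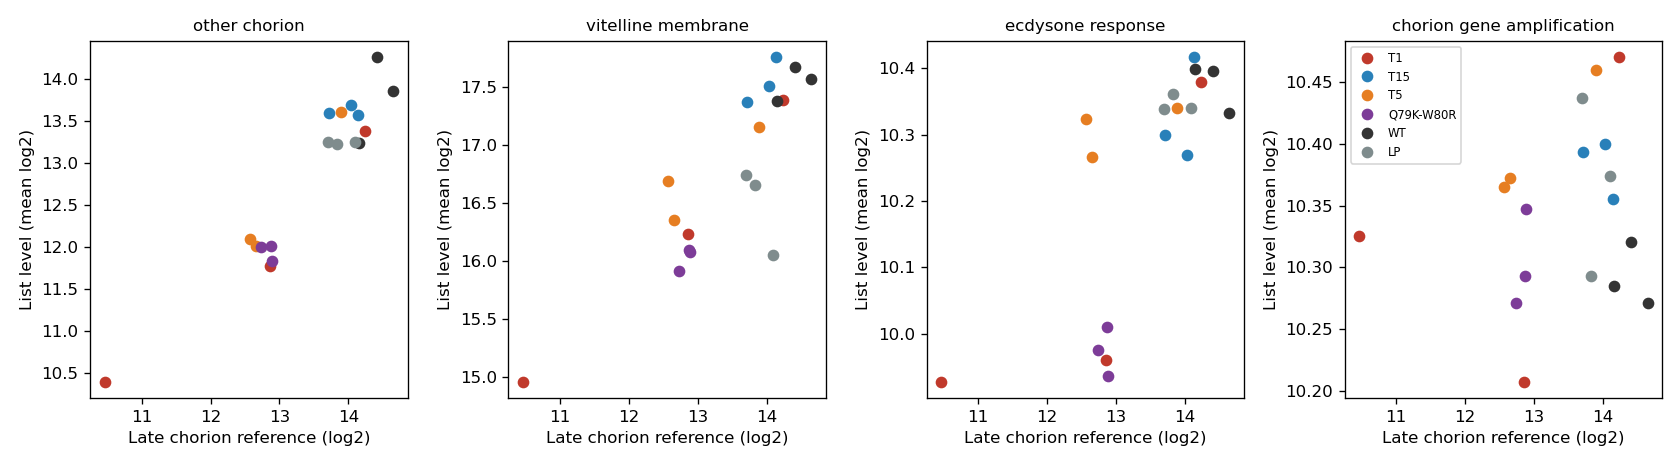
Level of 4 gene lists (y axis, mean log2(normalized count + 1) without tracking genes) against the late chorion reference (x axis, log2) in the 18 libraries, colored by line. The other chorion genes follow the reference (r = 0.95) and the chorion gene amplification list shows r = 0.208.

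By position, 26 of the 100 genes lay on the X chromosome, 19 on 2L, 16 on 2R, 16 on 3L, 22 on 3R and 1 (dati) on 4, and the X holds 17.2% of the 7726 genes. Of the 97 protein-coding tracking genes, 13 had another tracking or excluded Cp or Vm gene of that r as the next gene on 1 of their sides, beside 1.69% of 7502 genes. These 13 were the pairs yellow-g and yellow-g2 (r = 0.995 with each other), dec and Ir7c (0.964), Cyp4s3 and drd (0.951) and CG16956 and Flad2 (0.921), the group of Femcoat, Muc4B, CG15570 and CG15571, and CG43965, which lies next to Cp18 at the edge of the late chorion cluster. CG43965 had 21.5, 40.7 and 94.2 in T1, 123, 159 and 128 in T15, 49.4, 82 and 47.1 in T5 and 49.99, 51.2 and 45.5 in Q79K-W80R, against 116, 188 and 66.5 in WT. CG43965 stood at 147, 143 and 191 in LP, higher in each LP library than in 2 of the 3 WT libraries. On either side of the cluster, Prm, the neighbor of Cp16, had r = 0.704 with the reference, and CG6511, which overlaps CG43965 on the other strand, had r = -0.662. Of the 100 genes, 45 overlap another annotated gene, 43 of them 1 on the other strand. The share of overlapping genes over all genes was not counted, so this is not a trait of the 100. It is not given in the sources used here whether the reads were counted by strand. Cyp4s3 and Rab3-GEF, both tracking genes, overlap, and reads shared between such pairs cannot be told apart here.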

How the data were processed

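RNA from follicle cells of 18 libraries (6 lines, 3 each) had been sequenced after a stranded mRNA kit. The authors demultiplexed with bcl2fastq 2.18.0.12, aligned with Bowtie, whose version is not given in the sources used here, counted genes with RSEM 1.3.1 and scaled the counts with DESeq2. The deposited signal values are therefore normalized gene counts: depth is already divided out and the raw depth is unknown. Neither the genome build nor the strand setting is given in the sources used here. Libraries were grouped by their GEO labels; the Q79K-W80R record names 2 result files, while 3 columns carry its name, all of which were used.

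Values were taken as log2(value + 1), which understates changes of low genes. Correlations were computed with NumPy 2.4.6 and SciPy 1.17.1 in Python 3.11.15, and moderated linear models (limma 3.58.1, R 4.3.3, with a mean-variance trend) were fitted to the libraries of each comparison, for genes at 10 or more in at least 3 of them, with Benjamini-Hochberg adjustment over all genes tested; scripts were tested on simulated data. List levels were means over a list's genes with a mean of at least 1. The p-values of comparisons between 2 lines measure the spread between libraries from separate crosses. Where the 12 mutant libraries were pooled, in limma and in the permutation tests, the spread also held differences between the 4 mutant forms. Gene symbols matched the annotation BDGP6.54 for 17372 of 17493 genes; it served for names, arms, order and overlaps. The same library numbers in T15 and WT deviated together (correlations of 0.26, 0.28 and 0.22), and the block is given beside that result; the other comparisons did not meet this in all 3 pairs. Members, lists and role groups were chosen with earlier results of these data known. Genes were named if among the 12 highest r, 8 highest means, 5 largest and 5 smallest SDs, 4 highest and 4 lowest r within lines, in a list, with a role that is sure, or the 3 genes on either side of the threshold. Alternatives were other pseudocounts, filters, scalings, fits and libraries left out. Promoter motifs and sequences were not analysed here. The values of 1 tracking gene are not reported here on their own.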

Additional observations from a re-analysis of the deposited data

How the results depend on the processing

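The differences in the late chorion reference kept their direction under all alternatives run; 5 of the 7 compare 3 with 3 libraries, whose p cannot pass. For the mutants against WT the unadjusted exact permutation p was 0.0418, at most 0.0462 under other pseudocounts and scalings, and 0.0165 (without the first T1 library) to 0.11 (without the second WT library) with 1 library left out; it exceeded 0.05 without the second T1 library, the first or the third T5 library, any Q79K-W80R library or any WT library. Leaving out 1 library gave differences of -1.44 to -1.08 for the mutants against WT, -0.89 to -0.55 against LP, -2.74 to -0.85 for T1, -0.57 to -0.32 for T15, -1.79 to -1.13 for T5 and -1.70 to -1.45 for Q79K-W80R against WT, and 0.41 to 0.65 for WT against LP. Of the 100 genes, 54 stayed by Spearman rho, 52 without the T1 line, 23 within the 11 upper libraries and 33 within the 7 lower, the last 2 chosen after seeing the data; leaving out 1 library kept 63 (without the first T1) to 99.

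The counts of called genes depended more on the choices. With all 18 libraries in 1 fit they were 714 for the mutants (222 in the report's fit), 530 for T1 (0), 106 for T15 (28), 464 for T5 (65) and 1227 for Q79K-W80R (1369) against WT, and 135 for WT against LP (38). T1 against WT gave 4 with no filter, 4 with a mean of at least 50, 3 after quantile normalization and 6 without the trend. T5 against WT gave 98, 18, 110 and 15 under the same choices and 35 with a pseudocount of 0.5. Without the trend T15 against WT gave 17 and WT against LP 17, and with no filter WT against LP gave 66. With the library number as a replicate block, 166 genes were called for T15, 185 for T5, 189 for the mutants, 1358 for Q79K-W80R and 0 for T1 against WT, and 4 for WT against LP; the pairing was met in T15 alone. Leaving out 1 library gave 23 to 350 genes for the mutants, 889 to 1613 for Q79K-W80R, 0 to 685 for T1, 0 to 280 for T15, 0 to 472 for T5 and 0 to 143 for WT against LP. The lowest counts came without the first WT library for the mutants and WT against LP, the third Q79K-W80R library, the first T15 library, and the second or the third WT library for T5. The highest came without the second T15 library for the mutants, the third WT library for Q79K-W80R and WT against LP, the third T1, the second WT for T15 and the second T5 library; fewer samples enter such fits, and the cause was not tested further.

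On deviations from line means, the relation to the reference lost its call for other chorion (r = 0.931), vitelline membrane (0.902), yolk (0.486), other eggshell assembly (0.395), ecdysone response (0.727) and muscle genes (0.547), by an exact permutation within lines. Other eggshell assembly (0.46) and muscle (0.416) also lost it without the 2 farthest libraries. Uncalled relations turned sign for late follicle genes with a pseudocount of 5 (0.107) and on deviations (0.0462), for midgut on deviations (-0.123) and for hemocyte and fat body genes without the 2 libraries (0.0905). The raw depth is unknown, so counting error cannot be given.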
